A study of Mus musculus with 6 samples.

Results

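The cells described here were the Ihh-positive cells of Day 10 digits in a dish (DID) cultures that carried little Col10a1. A Day 10 cell was a member when it held 2 or more unique molecular identifiers (UMIs, one per captured transcript) of Ihh and fewer than 20 of Col10a1. Cells had first to hold 3000 or more UMIs, 7500 or fewer genes and 25% or less mitochondrial UMIs. The rule took 1256 of the 16707 Day 10 cells over these limits, 585 in replicate A and 671 in replicate B, and 54126 cells passed the limits in all 6 libraries. They were set against 1485 Ihh-lacking chondrocytes of the same libraries (731 and 754), in which Matn1 and Snorc together made up 0.3% or more of UMIs, Ihh was at 0 and Col10a1 was under 20. A further 486 Day 10 cells (264 and 222) with 20 or more Col10a1 UMIs, the Col10a1-high cells, served as the nearest group on the far side of the Col10a1 limit.

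The cultures were grown at high density from distal forelimb mesenchyme of CD-1 mouse embryos at stage E11.5, with no genetic change or added factor named in the labels. Limb buds of several embryos of this outbred stock were pooled, so a library does not stand for 1 animal. For each of Day 2, Day 7 and Day 10, replicates A and B were separate cultures, each made into 1 droplet library of 3' transcript ends. All groups below differ only in day, replicate and the transcripts that sort the cells.

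In a growing bone, chondrocytes leave the cell cycle, pass through a prehypertrophic state and then enlarge into hypertrophic cells. Prehypertrophic chondrocytes secrete Indian hedgehog (Ihh), which acts on neighbouring cells through the receptor Ptch1 and raises parathyroid hormone-related protein (Pthlh) at the ends of the element. That ligand binds Pth1r on the chondrocytes and delays their maturation, so both signals set where the change to hypertrophy takes place. Col10a1 encodes the collagen of hypertrophic cartilage, and Ihh also acts on the perichondrium, where osteoblasts form.

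The 6 libraries, with 11518 to 20188 barcodes, gave 8350 to 9742 cells each over the limits, with 166797398 to 253858740 UMIs in those cells. Between 16 and 31 cell barcodes were shared by any 2 libraries, at most 0.347% of the smaller one. Doublets were not removed. The doublet caller Scrublet marked 3 cells in 1 Day 10 library and 0 in the other 5, and the 10% of cells with the highest scores in each Day 10 library held 14.0% and 15.9% of the Ihh-positive cells against 7.66% and 9.02% of the Ihh-lacking chondrocytes. The Ihh-positive cells were also the deeper group, with a median of 39704 UMIs in replicate A and 37366 in replicate B against 24848 and 23734.5. The part of depth and of doublets in the results was not tested, and counts against deeper chondrocytes are given beside the lists whose counts they change most. The Scrublet share was 9.38% and 10.7% for the Ihh-positive cells that passed the cartilage limit described below and 25.4% and 31.0% for those that did not.

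Ihh (chromosome 1, 74945315 to 74951672 in GRCm38, minus strand) chose the cells, and its level is given as a description. Ihh-positive cells made up 7.01% of Day 10 replicate A (exact binomial 95% interval, 6.47 to 7.58%) and 8.03% of replicate B (7.46 to 8.63%). At Day 7 the same rule took 6.05% and 6.09% of cells and at Day 2 it took 2.64% and 2.21%. Day 10 replicate B stood above both Day 7 libraries beyond counting error, while the intervals of Day 10 replicate A and of the Day 7 libraries overlapped. The rule asks for a fixed number of Ihh UMIs, and cells were deeper at Day 10 (median 29354 and 27884 UMIs) than at Day 7 (19537 and 18350) and Day 2 (19463 and 12899), so the part of depth in these shares cannot be told apart from that of the day. The Ihh-lacking chondrocytes made up 21.9% and 19.3% of cells at Day 7 and 8.75% and 9.02% at Day 10, and no cell met their rule at Day 2 (0 of 8949 and 0 of 9742 cells, which at 3 counts of the total allows a share of up to 0.0335% and 0.0308%). Intervals and limits of this kind cover counting error only.

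**Figure D1:**
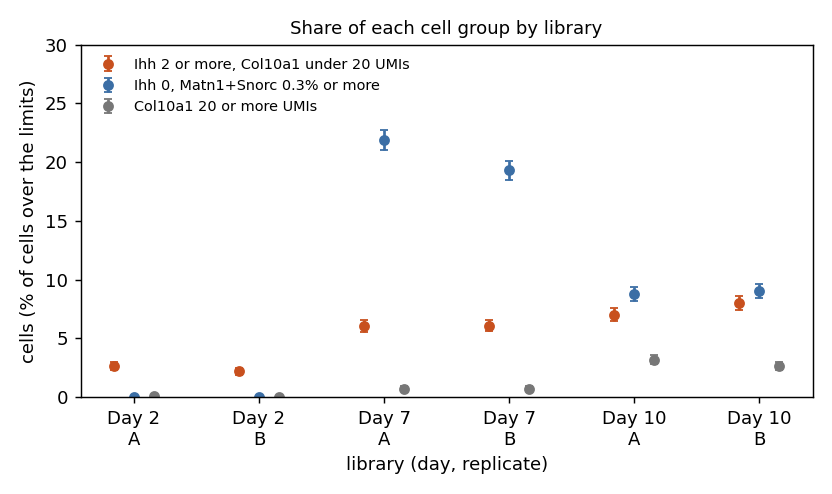
Share of cells (percent of cells over the limits) in each of the 6 libraries for Ihh-positive cells, Ihh-lacking chondrocytes and Col10a1-high cells. Points are libraries and bars are exact binomial 95% intervals. The Ihh-positive cells sit at 2.21 to 2.64% at Day 2, 6.05 to 6.09% at Day 7 and 7.01 to 8.03% at Day 10.

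The Ihh-positive cells spanned a wide range of Ihh. The median was 5 UMIs in both Day 10 libraries, 39.0% and 37.4% of the cells had only 2 or 3, and 20.5% and 19.97% had 12 or more, with a highest value of 93 and 81. As a background level, 124 and 172 Day 10 cells with 20 or more UMIs of the immune genes included 0 and 3 cells with 2 or more Ihh UMIs (0% and 1.74%), at a median depth of 21025.5 and 22150.5 UMIs. Summed over cells, Ihh stood at 205 and 204 CPM (counts scaled to the same total in every sum, the scale of all levels below) in the Ihh-positive cells at Day 10. It was at 118 and 116 CPM in the cells of the same rule at Day 7, with no overlap between the days.

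At the edges of the rule the groups shaded into each other. The 466 and 407 Day 10 cells with exactly 1 Ihh UMI held Pth1r at 303 and 344 CPM and Col1a1 at 2535 and 2197 CPM. The 143 and 151 cells with exactly 2 held Pth1r at 516 and 512 CPM and Col1a1 at 1542 and 1621 CPM. At the other limit, the 11 and 10 members with 15 to 19 Col10a1 UMIs held Pth1r at 1106 and 1365 CPM, and the 11 and 10 Ihh-bearing cells with 20 to 29 held 966 and 1062 CPM.

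Most of the cells, but not all, reached the cartilage level set for chondrocytes, which does not show a prehypertrophic state. Of the Ihh-positive cells, 416 in replicate A and 497 in replicate B (71.1% and 74.1%) passed the cartilage limit of the comparison group, that is, 0.3% or more of UMIs from Matn1 and Snorc, while 169 and 174 did not. Col2a1, the main fibrillar collagen of cartilage, was at 22400 and 20720 CPM in the first set, at 12000 and 11080 CPM in the second and at 1348 and 1210 CPM in cells with neither Ihh nor the cartilage genes. Col1a1, a bone and fibrous tissue collagen, ran the other way, at 591 and 570 CPM over the limit and 2102 and 2598 CPM under it. Foxa3, a forkhead factor of maturing chondrocytes, was at 29.5 and 30.5 CPM over the limit, 13.1 and 10.3 CPM under it and 1.12 and 1.06 CPM in cells with neither. Against the Ihh-lacking chondrocytes Foxa3 was called only among the cells over the limit, as given below. The cells are therefore called Ihh-positive below, and for many results the value for those over the cartilage limit is given as well.

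Of 18 listed regulators of hypertrophy 9 were higher in the Ihh-positive cells at Day 10 and 2 lower, with a median log2 fold change of 0.30, and the receptor Pth1r was higher as well. Pth1r (chromosome 9, 110722085 to 110747145), the receptor for Pthlh, was at 243 and 252 CPM in the Ihh-lacking chondrocytes and at 732 and 725 CPM in the Ihh-positive cells, a log2 fold change of 1.57 ± 0.08 (SE, n = 2 libraries, edgeR quasi-likelihood adjusted p = 1.8e-07). Mef2c, a transcription factor that drives hypertrophy, was at 196 and 198 CPM against 361 and 350 CPM (log2 fold change 0.87 ± 0.05). The groups did not overlap for Mef2c, nor for Pth1r, for which this was a condition of the rule that took genes by fold change. Over all genes tested, 11.8% were called higher (1686 of 14319 at an edgeR adjusted p under 0.05) and 9.71% lower (1390), with a median log2 fold change of -0.01.

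The called regulators included the runt factors Runx2 and Runx3, which open the hypertrophic and osteoblast programmes. Runx2 rose by only 0.27 ± 0.05, from 68.6 and 69.7 CPM to 81.8 and 83.6 CPM, and Runx3 by 0.64 ± 0.08, from 23.1 and 26.1 CPM to 40.3 and 35.7 CPM. Sp7, the zinc finger factor that acts after Runx2, was at 28.4 and 25.6 CPM against 53.9 and 45.7 CPM (0.90 ± 0.06). Foxa2, a forkhead factor of hypertrophy, was low in both groups, at 1.31 and 2.28 CPM against 6.50 and 5.32 CPM (1.72 ± 0.26). Foxa3 was at 21.1 and 21.0 CPM against 25.1 and 25.6 CPM and was not called (0.28 ± 0.11, edgeR adjusted p = 0.077), whereas among the cells over the cartilage limit, where 13.1% of genes were higher and 10.8% lower, its difference was 0.57 (edgeR adjusted p = 0.0014). Shox2 and Zfp521 were the 2 regulators called lower, by 0.38 and 0.29 on the log2 scale.

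**Figure D2:**
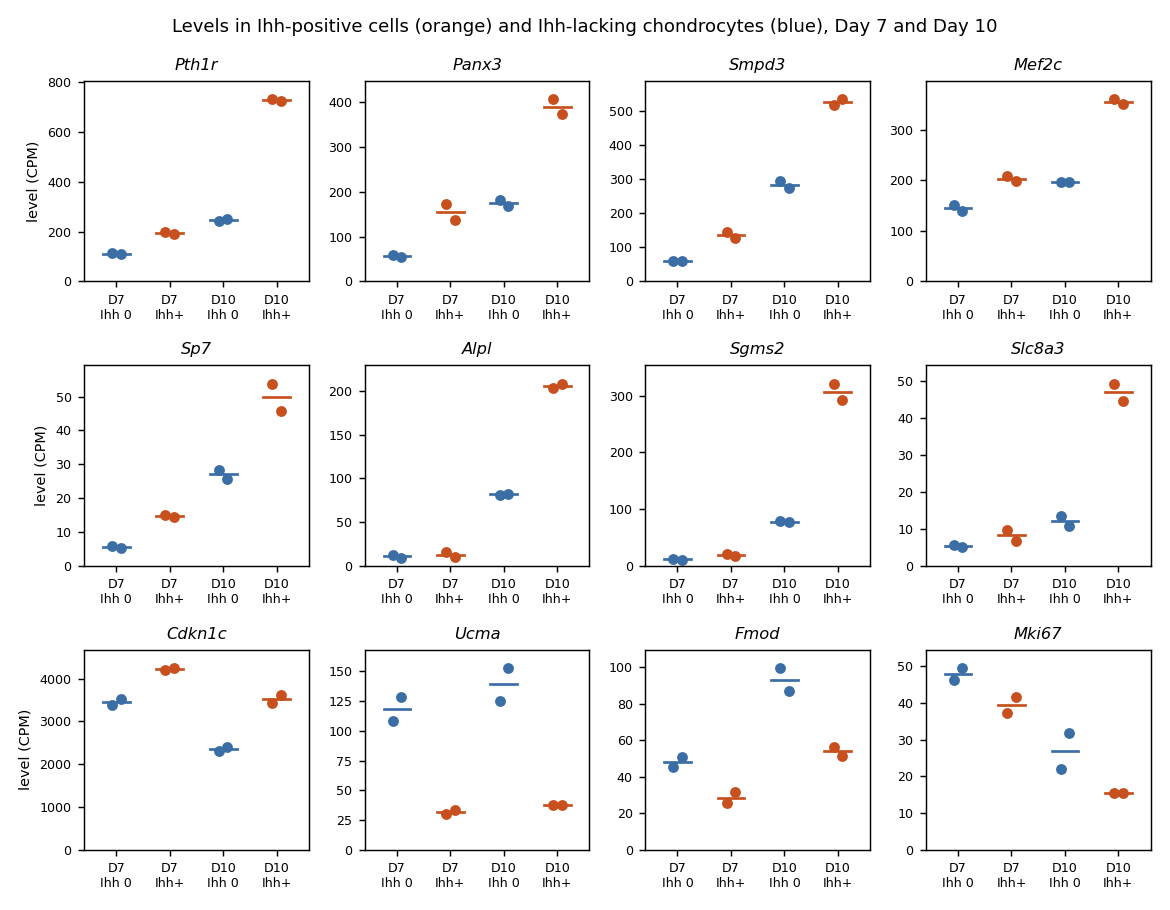
Levels of 12 genes (CPM) in Ihh-lacking chondrocytes (Ihh 0, blue) and Ihh-positive cells (Ihh+, orange) at Day 7 (D7) and Day 10 (D10). Points are replicates A and B and lines are their mean. Pth1r at Day 10 lies at 732 and 725 in the Ihh-positive cells against 243 and 252, and Ucma lies at 37.5 and 37.7 against 125 and 153.

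Of 16 listed genes of mineral and of hypertrophic cells 7 were called higher, 1 lower and 8 neither, with a median log2 fold change of 0.40. The shares over all genes were 11.8% higher and 9.71% lower. For the cells over the cartilage limit the counts were 7 and 1 (median 0.31), beside 13.1% and 10.8% of all genes. Against the deeper chondrocytes described below they were 6 and 0 (median 0.67), beside 4.76% and 4.19%. Alpl, the phosphatase that frees phosphate for mineral, was at 80.5 and 82.4 CPM in the Ihh-lacking chondrocytes and at 204 and 209 CPM in the Ihh-positive cells (1.36 ± 0.07, edgeR adjusted p = 9.2e-08). Panx3, a channel of prehypertrophic and hypertrophic cells, was at 182 and 168 CPM against 407 and 373 CPM (1.17 ± 0.08), and Smpd3, a sphingomyelinase needed for mineral, at 293 and 274 CPM against 517 and 535 CPM (0.91 ± 0.07). The libraries of the 2 groups lay apart for all 3 genes. Other genes with high fold changes lay outside that list. Those named next were taken by the rule of fold change, so their fold changes and the gaps between their libraries are partly set by it. Slc8a3 and Slc13a5 reached its level of 20 CPM only in the Ihh-positive cells. Sgms2, a sphingomyelin synthase, was at 77.9 and 76.9 CPM against 322 and 292 CPM (2.00 ± 0.08), Slc8a3, a sodium and calcium exchanger, at 13.3 and 10.8 CPM against 49.3 and 44.4 CPM (1.97 ± 0.08), and Slc13a5, a citrate transporter, at 5.09 and 6.30 CPM against 26.2 and 24.7 CPM (2.17 ± 0.12). Entpd3, Pcsk6 and Tmem119 were higher by 1.67, 1.60 and 1.503, and Tmem119 by 0.78 among the cells over the cartilage limit. Mmp13, the collagenase of late hypertrophic cells, was at 7.66 and 4.84 CPM against 4.42 and 10.2 CPM with overlapping libraries, and Spp1 was at 228 and 207 CPM against 189 and 313 CPM, neither called.

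Among the genes that the rule of fold change took, Ibsp and Ifitm5 had the 2 highest fold changes, and both came from few cells. That rule asks for libraries that lie apart and for 20 CPM in the higher group, which Ifitm5 reached only in the Ihh-positive cells. Ibsp, a sialoprotein of mineralizing matrix, was at 41.2 and 89.1 CPM in the Ihh-lacking chondrocytes and at 1183 and 1423 CPM in the Ihh-positive cells (4.36 ± 0.20). Ifitm5, a membrane protein of osteoblasts, went from 0.77 and 3.21 CPM to 39.3 and 42.0 CPM (4.38 ± 0.32). Yet the median Ihh-positive cell held 1 Ibsp UMI, and 37 and 38 cells with 100 or more (6.33% and 5.66%) held 92.1% and 92.9% of all Ibsp UMIs. Without those cells, described after their values were seen, Ibsp stood at 100.04 and 108 CPM and Ifitm5 at 3.26 and 3.53 CPM. The Ihh-lacking chondrocytes held 1 such cell in each library, with 33.3% and 46.4% of their Ibsp UMIs, and without it Ibsp stood at 27.5 and 47.96 CPM and Ifitm5 at 0.77 and 1.58 CPM. Of the high cells among the Ihh-positive cells most, 64.9% and 68.4%, were under the cartilage limit, where Ibsp was at 3121 and 5085 CPM against 472 and 231 CPM over it. With only the cells over the limit the log2 fold changes were 2.44 for Ibsp and 1.68 for Ifitm5. Few cells carried these as well, since 13 and 12 cells with 100 or more Ibsp UMIs held 86.8% and 62.2% of them. Without those cells Ibsp was at 64.8 and 89.6 CPM and Ifitm5 at 2.03 and 2.26 CPM over the limit. An Ibsp UMI was present in 53.0% and 53.5% of the Ihh-positive cells, in 28.9% and 30.8% of the Ihh-lacking chondrocytes and, as a background, in 15.3% and 20.9% of the shallower Day 10 immune cells. Summed over those immune cells Ibsp stood at 7.92 and 224.5 CPM. In replicate B this background was above the 108 and 89.6 CPM left without the high cells.

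Of the 7 osteoblast markers 6 were called higher and 0 lower (median 1.53), beside 11.8% and 9.71% of all genes. With only the cells over the cartilage limit, where 13.1% of genes were higher and 10.8% lower, 5 were higher and 1 lower (median 1.08). Their summed level was 2493 and 2802 CPM in the Ihh-positive cells, 1313 and 1037 CPM in those over the cartilage limit and 882 and 826 CPM in the Ihh-lacking chondrocytes. Col1a1 turned: it was higher over all Ihh-positive cells (0.63 ± 0.06) and lower by 0.16 among those over the limit (edgeR adjusted p = 0.036). Creb3l1, a factor of collagen secretion in bone, was at 56.3 and 58.5 CPM against 30.2 and 31.4 CPM (0.91 ± 0.06), but at 0.13 with an edgeR adjusted p of 0.19 among the cells over the limit. Bglap and Bglap2, osteocalcin genes that share near-identical sequence and whose counts are uncertain for that reason, were higher by 1.94 and 2.05. By contrast, Pth1r, Panx3 and Sgms2 stood near the same level on both sides of the limit. Pth1r was at 767 and 736 CPM over the limit and 637 and 692 CPM under it, and Sgms2 at 320 and 293 CPM and 327 and 289 CPM.

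**Figure D3:**
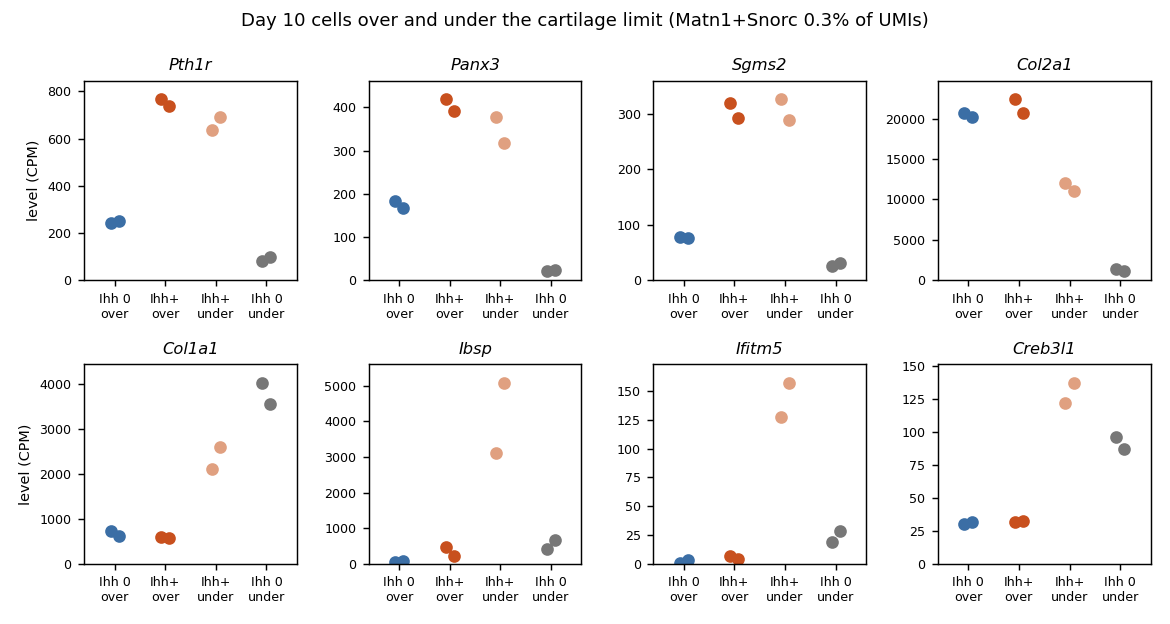
Levels of 8 genes (CPM) in 4 sets of Day 10 cells split by Ihh (0, or 2 or more as Ihh+) and by the cartilage limit of 0.3% of UMIs from Matn1 and Snorc (over or under). Points are replicates A and B. Pth1r, Panx3 and Sgms2 are near one level in both Ihh-positive sets, while Ibsp is at 3121 and 5085 under the limit against 472 and 231 over it.

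Summed levels of markers of other cell types were read over the same sets. The 5 contractile markers summed to 990 and 1264 CPM in the Ihh-positive cells, 671 and 1010 CPM in those over the cartilage limit and 634 and 803 CPM in the Ihh-lacking chondrocytes, with 5 of 5 called higher (3 of 5 over the limit). The 7 immune markers summed to 3.29 and 13.4 CPM against 7.33 and 5.06 CPM, the 5 muscle markers to 1.21 and 2.34 CPM against 1.09 and 1.47 CPM and the 4 endothelial markers to 0.17 and 0.72 CPM against 0.27 and 0.43 CPM. The defining muscle gene Myod1 was at 0 in both groups of both libraries. The 5 tenocyte markers, of which Kera was at 0, summed to 254 and 246 CPM against 311 and 277 CPM, and the 5 articular markers to 27.8 and 30.9 CPM against 22.7 and 22.5 CPM. The 4 perichondrium markers summed to 1164 and 1232 CPM in the Ihh-positive cells, 728.5 and 706 CPM in those over the cartilage limit, 2352 and 2849 CPM in those under it and 942 and 827 CPM in the Ihh-lacking chondrocytes, with 1 of 4 called higher and 2 lower, and 0 and 4 over the limit. Beside these counts stand 11.8% of all genes higher and 9.71% lower, and 13.1% and 10.8% for the cells over the limit. The part of contractile, perichondrial or osteoblast RNA in the differences was not tested.

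Within the hedgehog pathway most receptor genes were called lower in the Ihh-positive cells. Disp1, which releases the lipid-bound ligand, was at 11.8 and 12.3 CPM against 7.33 and 8.26 CPM (0.65 ± 0.11). Ptch1, the receptor and itself a target of the signal, was at 112 and 117 CPM in the Ihh-positive cells and 138 and 132 CPM in the Ihh-lacking chondrocytes (-0.23 ± 0.05, edgeR adjusted p = 0.0042). The target Gli1 was at 3.12 and 3.28 CPM against 6.12 and 6.09 CPM (-0.92 ± 0.15), the decoy receptor Hhip at 4.50 and 4.04 CPM against 8.70 and 8.75 CPM (-1.02 ± 0.13) and the co-receptor Boc at 15.2 and 16.3 CPM against 28.6 and 26.7 CPM (-0.80 ± 0.09). Of 6 receptors and co-receptors tested, 0 were higher and 5 lower, with a median of -0.35, beside 11.8% and 9.71% of all genes. For the Ihh-positive cells over the cartilage limit, where 13.1% of genes were higher and 10.8% lower, the counts were 0 and 6 (median -0.54). Some of these calls changed when the comparison group was narrowed to its deeper cells, and the part of depth itself was not tested. With cells thinned to 10000 UMIs instead, Ptch1 kept its sign. Against Ihh-lacking chondrocytes at least as deep as the median Ihh-positive cell, a setting chosen after seeing the data in which 4.76% of genes were higher and 4.19% lower, Ptch1 was higher by 0.24 (edgeR adjusted p = 0.024). Gli1 then differed by -0.23 and Hhip by -0.66 without a call, and Boc was lower by 0.47. In that setting 1 of the 6 receptors was higher and 1 lower, while their median of -0.35 was the same to 2 decimals as in the main comparison.

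In the PTHrP branch the ligand and the receptor lay on opposite sides. Pthlh gave only 24 and 19 UMIs in the Ihh-lacking chondrocytes and 4 and 3 in the Ihh-positive cells, that is 1.31 and 1.03 CPM against 0.17 and 0.11 CPM (-2.98 ± 0.62, edgeR adjusted p = 0.0045), and it was not called against the deeper chondrocytes (-2.41, edgeR adjusted p = 0.16). Nr4a2, a nuclear receptor of the cyclic AMP response, was lower by 1.13 in the main comparison and by 0.05 against the deeper chondrocytes. Across the 8 genes of the branch 1 was higher and 4 lower, and 1 and 0 against the deeper chondrocytes. The shares over all genes were 11.8% and 9.71%, and 4.76% and 4.19% against the deeper chondrocytes.

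Matrix genes of cartilage were read next. Col2a1 was at 20710 and 20230 CPM in the Ihh-lacking chondrocytes and 19610 and 18350 CPM in the Ihh-positive cells and was not called (-0.10 ± 0.08), nor were Acan, the main proteoglycan (-0.05 ± 0.10), or the regulator Sox9 (-0.01 ± 0.09). Col11a1, a collagen of the same fibrils, was lower by 0.30, but by 0.07 without a call among the cells over the cartilage limit. Comp and Hapln1, which tie collagen and hyaluronan into the matrix, were higher by 0.72 ± 0.08 and 0.37 ± 0.08, the latter not called with DESeq2 (adjusted p = 0.11). Ucma (chromosome 2, 4976122 to 4985748), a small matrix protein of the upper growth plate, was at 125 and 153 CPM against 37.5 and 37.7 CPM (-1.87 ± 0.06, edgeR adjusted p = 4.6e-09). Also lower were Cytl1 (69.0 and 87.1 CPM against 33.4 and 33.2 CPM, -1.21 ± 0.08), the BMP antagonist Chrdl2 (22.3 and 21.9 CPM against 9.53 and 8.79 CPM, -1.25 ± 0.10) and the collagen-binding Fmod (99.6 and 86.8 CPM against 56.2 and 51.4 CPM, -0.78 ± 0.05). The groups lay apart for Fmod, while for Ucma, Cytl1 and Chrdl2 this was a condition of the rule that took them. Of 22 listed matrix genes 2 were higher and 10 lower (median -0.24), beside 11.8% and 9.71% of all genes. With the cells over the cartilage limit the counts were 3 and 4, beside 13.1% and 10.8%. Against the deeper chondrocytes they were 2 and 4, beside 4.76% and 4.19%.

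Other genes with low fold changes, taken by the same rule of fold change, were Lars2, Hist1h1b, Ecrg4, Itm2a, Prc1 and Dlk1. Of these, Hist1h1b and Prc1 were not called with DESeq2 or with Ihh at 1 or more UMIs, nor Hist1h1b without the replicate block. Dlk1, a Delta-like protein of immature cells, was at 910 and 1053 CPM against 472 and 529 CPM (-0.96 ± 0.11), Itm2a at 211 and 152 CPM against 79.9 and 97.5 CPM and Ecrg4 at 222 and 222 CPM against 107 and 101 CPM. Lars2, a mitochondrial tRNA ligase, was lower by 1.22 but differed by 0.25 with no call against the deeper chondrocytes.

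Of 15 WNT ligands and antagonists tested, 8 were higher and 4 lower (median 0.55), with 6 and 3 (median 0.27) for the cells over the cartilage limit and 7 and 1 against the deeper chondrocytes. Over all genes, 11.8% were higher and 9.71% lower in the main comparison, 13.1% and 10.8% over the limit and 4.76% and 4.19% against the deeper chondrocytes. Counts between the settings are to be read beside these shares. Wnt4, a ligand that quickens maturation, was at 29.4 and 31.0 CPM in the Ihh-lacking chondrocytes and 61.9 and 62.8 CPM in the Ihh-positive cells (1.06 ± 0.08), and Wnt5b at 3.28 and 3.81 CPM against 10.5 and 8.53 CPM (1.43 ± 0.18). The secreted antagonist Sfrp1 went the other way, at 10.8 and 13.3 CPM against 5.41 and 6.26 CPM (-1.03 ± 0.13). Among 8 BMP and GDF ligands 5 were higher and 0 lower (median 0.55), with Bmp6 at 5.58 and 5.001 CPM against 9.92 and 8.79 CPM (0.84 ± 0.16), while of 17 BMP receptors, antagonists and targets 1 was higher and 6 were lower (0 and 6 for the cells over the cartilage limit, 2 and 3 against the deeper chondrocytes). Among the targets, Id1 and Id2 were lower by 0.48 and 0.45 and Smad7 was higher by 0.38. Prkg2, the kinase through which C-type natriuretic peptide speeds growth, was at 38.3 and 31.1 CPM against 65.4 and 53.8 CPM (0.80 ± 0.06). Of the 10 genes of the IGF axis 1 was higher and 6 were lower, with 0 and 8 for the cells over the cartilage limit and 1 and 4 against the deeper chondrocytes. Its ligand Igf2 fell from 2195 and 2230 CPM to 1487 and 1417 CPM (-0.59 ± 0.04) but by only 0.09 with no call against the deeper chondrocytes.

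Most genes of dividing cells were lower. Of 12 genes of dividing cells 0 were higher and 11 lower (median -0.63), and 12 of 12 were lower both for the cells over the cartilage limit and against the deeper chondrocytes. Mki67 was at 21.9 and 31.8 CPM against 15.5 and 15.6 CPM (-0.77 ± 0.13). Cdkn1c, the inhibitor p57 that chondrocytes raise on leaving the cycle, was at 2308 and 2396 CPM against 3439 and 3621 CPM (0.60 ± 0.06), and Cdkn1a, the inhibitor p21, at 443 and 488 CPM against 694 and 779 CPM (0.68 ± 0.03). The groups did not overlap for these 3 genes. Of 8 listed cell cycle brakes 4 were higher and 1, Cdkn2c, was lower (by 0.82 on the log2 scale), with 2 higher and 1 lower against the deeper chondrocytes. Of 17 genes of glycolysis and hypoxia 12 were higher and 2 lower (median 0.23), led by Ndrg1 (0.69 ± 0.08), with 7 and 1 against the deeper chondrocytes. Genes that respond to cell dissociation, 1 higher and 7 lower of 11, were 1 higher and 1 lower there. Calls over all genes were also fewer against the deeper chondrocytes, at 4.76% higher and 4.19% lower against 11.8% and 9.71%.

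**Figure D4:**
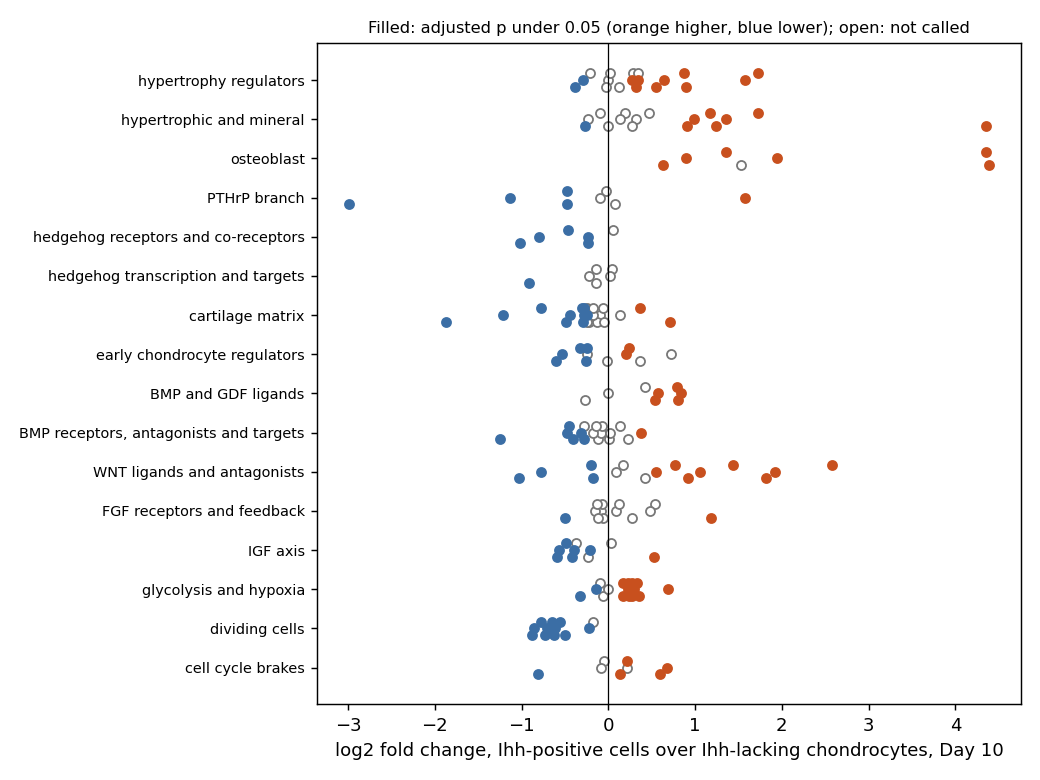
Log2 fold changes between Ihh-positive cells and Ihh-lacking chondrocytes at Day 10 for 16 gene lists. Each point is 1 gene, filled where the edgeR adjusted p was under 0.05 (orange higher, blue lower) and open where it was not. Hypertrophy regulators lie mostly to the right, with 9 higher and 2 lower, and dividing-cell genes to the left, with 0 higher and 11 lower.

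Along the Ihh-positive cells themselves, several genes stepped with Ihh and with Col10a1. Among those over the cartilage limit, Pth1r was at 530 and 548 CPM in cells with 2 or 3 Ihh UMIs, 758 and 729 CPM with 4 to 11 and 995 and 949 CPM with 12 or more. Cdkn1c was at 2821 and 3475 CPM, 3818 and 3744 CPM, and 4509 and 4829 CPM in the same 3 sets. Ptch1 ran down, at 131 and 121 CPM, 105 and 110 CPM, and 89.3 and 94.6 CPM. Median depth also rose along these sets, from 35967 and 34339 UMIs to 49437.5 and 43701, and its part was not tested.

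Col10a1 was absent in 55.0% and 61.0% of the Ihh-positive cells and at 5 UMIs or more in 11.5% and 9.99%. The cells over the cartilage limit were then set side by side, first the Ihh-lacking chondrocytes, then the Ihh-positive cells with 0, 1 to 4 and 5 to 19 Col10a1 UMIs, then the Col10a1-high cells. The first step in this series is a split by Ihh and not by Col10a1, which was at 18.6 and 11.7 CPM in the Ihh-lacking chondrocytes and at 0 in the second set, and only the later steps follow Col10a1. Alpl was at 80.5 and 82.4, then 176 and 156, 178 and 187, 258 and 240, and 393 and 386 CPM. Hapln1 was at 2051 and 1828 CPM in the first set, 2938 and 2549 CPM in the second and 5798 and 5011 CPM in the last. Most of the drop in Ucma lay between the first 2 sets, from 125 and 153 CPM to 41.9 and 59.7 CPM. Cdkn1c peaked within the Ihh-positive cells, at 3685 to 4087 CPM in the 3 middle sets of both replicates against 2991 and 3247 CPM in the last set. These orderings were chosen on the data and are given with no test.

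**Figure D5:**
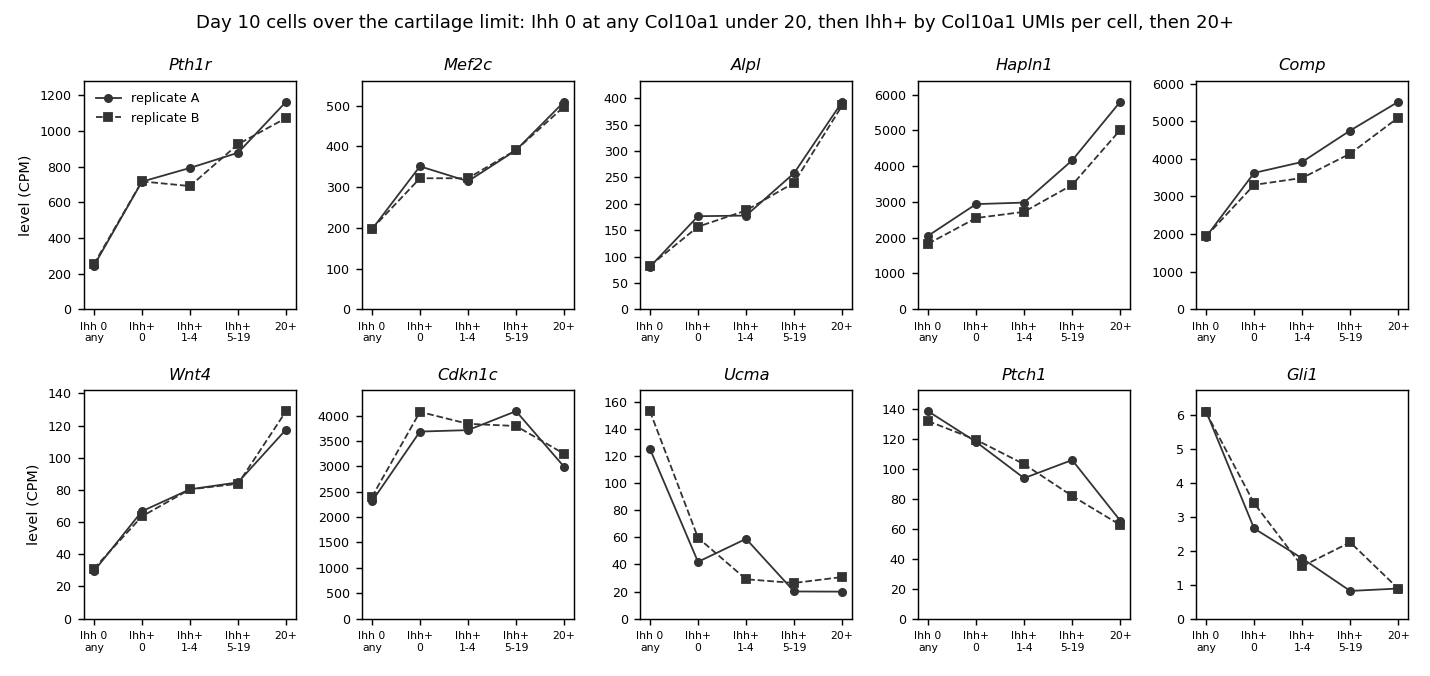
Levels of 10 genes (CPM) in Day 10 cells over the cartilage limit. The first set has Ihh at 0, the 3 middle sets (Ihh+) have 0, 1 to 4 or 5 to 19 Col10a1 UMIs, and the last has 20 or more at any Ihh. Lines join the sets within replicate A or B. Alpl goes from 80.5 and 82.4 in the first set to 393 and 386 in the last, and Ptch1 from 138 and 132 to 65.4 and 62.5.

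The Col10a1-high cells were of 2 kinds. Of them, 113 and 65 passed the cartilage limit and held Ihh at 273 and 252 CPM and Col1a1 at 466 and 578 CPM, while 151 and 157 did not and held Ihh at 5.14 and 4.79 CPM and Col1a1 at 4522 and 3711 CPM. Against all Col10a1-high cells, 18.3% of genes were higher in the Ihh-positive cells and 20.1% lower (2623 and 2882 of 14319). With both groups over the limit, a comparison added after seeing the data, 7.97% were higher and 9.91% lower (1105 and 1373 of 13859).

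With both groups over the limit, part of the listed genes were lower in the Ihh-positive cells than in the Col10a1-high cells. Alpl was lower by 1.11 on the log2 scale (SE 0.05, edgeR adjusted p = 6.3e-11), Slc13a5 by 1.82 and Wnt5b by 1.80, and the matrix genes Hapln1 and Acan by 0.90 and 0.75. Of the 16 mineral and hypertrophic genes 1 was higher and 7 lower, and of the 18 regulators 2 were higher and 7 lower. The shares over all genes were 7.97% and 9.91%. Pth1r and Mef2c were lower by 0.59 and 0.60, although over all cells they were higher by 0.50 and 0.23. Comp and Wnt4 turned in the same way, from 0.47 and 0.24 to -0.55 and -0.77. Foxa3 turned as well, from 0.60 to -0.38, and was called in both settings. Panx3 differed by 1.07 over all cells and by -0.09, with no call, over the limit.

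Several genes were higher in the Ihh-positive cells than in the Col10a1-high cells in both settings. Ptch1 was higher by 1.12 ± 0.06 over all cells and by 0.74 over the limit, Ucma by 1.85 and 0.86, Chrdl2 by 2.59 and 1.505 and Sfrp5, a WNT antagonist, by 3.04 and 2.08. Car8, a carbonic anhydrase-related protein, was at 36.4 and 41.0 CPM against 4.41 and 5.33 CPM in the Col10a1-high cells (3.13 ± 0.11) and higher by 1.89 over the limit, and Cmtm5, Omd and Itm2a were higher in both settings. Cdkn1c was higher by 1.32 and 0.29. Ucma, Sfrp5, Car8, Cmtm5, Omd and Itm2a, and Mmp13 and Spp1 below, were taken by the rule of fold change over all cells. Mmp13 and Spp1, the collagenase and the osteopontin gene of late cells, were lower by 2.59 and 2.87 over all cells and by 2.52 and 1.53 over the limit, but Mmp13 was not called over all cells with DESeq2 (adjusted p = 0.12).

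The same rule was applied at Day 7, whose cells did not enter the choice at Day 10, to 566 and 571 Ihh-positive cells and 2048 and 1809 Ihh-lacking chondrocytes. There 9.26% of genes were higher and 7.71% lower (1326 and 1104 of 14319). Genes called in the same direction on both days numbered 810 higher, which is 48.0% of those of Day 10 and 61.1% of those of Day 7, and 616 lower (44.3% and 55.8%), while 34 and 12 of the Day 10 genes were called in the opposite direction at Day 7. The days were fitted together but share no library. At Day 7 too the Ihh-positive cells were deeper, with a median of 37359.5 and 36077 UMIs against 23485 and 24055. The highest Scrublet scores held 14.8% and 18.4% of them against 10.3% and 9.07% of the Ihh-lacking chondrocytes. Against the deeper chondrocytes of Day 7, 370 genes were higher and 457 lower. The overlap of the days was not counted in that setting, and the part of depth and of doublets in it was not tested. The number of genes called at Day 7, 2430 in both directions, was 528 without replicate A and 528 without replicate B of Day 7, and 4252 and 4117 without replicate A or B of Day 10.

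Ibsp was already higher at Day 7, at 1.85 and 0.998 CPM against 8.13 and 9.73 CPM (2.62 ± 0.48, edgeR adjusted p = 0.003), but it was low and was not called without replicate B of Day 7 or against the deeper chondrocytes. Panx3 was at 57.8 and 53.7 CPM in the Ihh-lacking chondrocytes and 173 and 138 CPM in the Ihh-positive cells (1.46 ± 0.08, edgeR adjusted p = 3.4e-07). Smpd3 was at 60.9 and 59.7 CPM against 144 and 128 CPM (1.16 ± 0.08), and Gdf10, a BMP-family ligand, at 14.4 and 11.1 CPM against 35.9 and 29.7 CPM (1.35 ± 0.08). Sp7 was already higher by 1.43 ± 0.08, Foxa2 by 1.42 ± 0.20 and Pth1r by 0.81 ± 0.08. Ucma was lower by 1.91 ± 0.06, at 108 and 128 CPM against 29.7 and 33.5 CPM. The libraries of the groups lay apart for each of these genes, and for Panx3, Smpd3, Gdf10 and Ucma this was a condition of the rule that took them. Alpl, by contrast, was at 12.2 and 8.87 CPM against 15.03 and 10.1 CPM and was not called (0.24 ± 0.11), Comp was not called (0.13 ± 0.08), and of the dividing-cell genes 0 were higher and 3 of 12 lower.

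The difference between the 2 days was tested as such, and 1.42% of genes had a higher fold change at Day 10 and 0.733% a lower one (204 and 105 of 14319). Slc13a5 gained by 3.38 ± 0.49 on the log2 scale, Slc8a3 by 1.36 ± 0.13, Wnt5b by 1.36 ± 0.28, Sgms2 by 1.24 ± 0.14, Alpl by 1.12 ± 0.13, Pth1r by 0.76 ± 0.12 and Wnt4 by 0.70 ± 0.11. Comp gained by 0.58 ± 0.12 and Mef2c by 0.39 ± 0.06. Cytl1 moved down, from -0.13 ± 0.07 at Day 7 to -1.21 ± 0.08 at Day 10, as did Sp7 (by 0.53 ± 0.10) and Gdf10 (by 0.56 ± 0.12), although the difference for Gdf10 was 0.028 with no call against the deeper chondrocytes. For Panx3, Smpd3, Ucma, Foxa2, Ibsp and Ifitm5 the difference between the days was not called. Of the 7 osteoblast markers 2 had a higher fold change at Day 10 and 1 a lower one. Of the 16 mineral and hypertrophic genes the counts were 1 and 0. The number of genes called, 309 in both directions, was 76 and 61 without replicate A or B of Day 7 and 1161 and 719 without replicate A or B of Day 10.

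Followed within the Ihh-positive cells, mineral and osteoblast genes were among the steepest rises from Day 7 to Day 10, where 18.5% of genes were higher and 19.3% lower (2514 and 2625 of 13586). The make-up of the cells differed between the days, with 82.0% over the cartilage limit in both Day 7 libraries against 71.1% and 74.1% at Day 10. Ibsp was at 8.13 and 9.73 CPM at Day 7 and 1183 and 1423 CPM at Day 10 (7.14 ± 0.11), Ifitm5 rose from 3 and 4 UMIs to 907 and 1112 (7.90 ± 0.18) and Slc13a5 from 0.23 and 0.14 CPM to 26.2 and 24.7 CPM (7.04 ± 0.19). Most Ibsp and Ifitm5 UMIs of Day 10 lay in few cells, and without the cells of 100 or more Ibsp UMIs Ibsp was at 100.04 and 108 CPM and Ifitm5 at 3.26 and 3.53 CPM. Sgms2 rose from 20.6 and 16.4 CPM to 322 and 292 CPM (4.002 ± 0.08) and Alpl from 15.03 and 10.1 CPM to 204 and 209 CPM (3.99 ± 0.10). Ibsp, Ifitm5, Slc13a5, Sgms2 and Alpl were taken by the rule of fold change. Of the 16 mineral and hypertrophic genes 12 were higher and 1 lower (median 1.27), and of the 18 regulators 11 and 2. Markers of other cell types moved too. Of those tested, 3 of 4 tenocyte, 3 of 5 contractile and 2 of 2 immune markers were higher and 0 lower. Of 4 perichondrium markers 2 were higher and 1 lower, and of 5 articular markers 1 and 1. The 12 dividing-cell genes were all lower (median -0.91). The histone gene Hist1h2ap (242 and 218 CPM to 15.9 and 3.25 CPM) was among the steepest falls, but its Day 10 replicates stood apart from each other, and it shares reads with near-identical copies, so its counts are uncertain. The cells share a library with all others of their day, and the Ihh-lacking chondrocytes moved the same way for some of these genes. In those chondrocytes Alpl was at 12.2 and 8.87 CPM at Day 7 and at 80.5 and 82.4 CPM at Day 10. Their Ibsp went from 92 and 45 UMIs at Day 7 to 754 and 1639 at Day 10, out of fewer UMIs in all. Their Ifitm5 went from 7 and 7 UMIs to 14 and 59. Mki67 went from 46.2 and 49.5 CPM to 21.9 and 31.8 CPM in them. Whether the changes within the Ihh-positive cells belong to them or to the whole culture was not tested here, and only the difference between the days given above sets them against those chondrocytes. The 11 dissociation genes moved with the day, 10 higher and 0 lower.

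At Day 2, 236 and 215 cells met the same rule and 0 were over the cartilage limit. They held Ihh at 139 and 133 CPM, Snorc at 18.1 and 31.4 CPM, Sox9 at 854 and 954 CPM, Col2a1 at 2470 and 2871 CPM and Pth1r at 122 and 121 CPM. Their Mki67 level was 226 and 217 CPM, against 15.5 and 15.6 CPM in the Ihh-positive cells of Day 10. With no comparison group at that day, these levels are given with no test.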

How the data were processed

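The 6 droplet libraries of DID cultures, 2 per day at Day 2, Day 7 and Day 10, were read from the deposited matrices of UMI counts, which the authors made with Cell Ranger 6.1.2 and its aligner STAR on the mouse genome GRCm38. These counts hold 32286 features per library and are not normalised. The authors' own clustering in Seurat 4.1.0 was not used here.

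Cells were kept at 3000 or more UMIs, 7500 or fewer genes and 25% or less mitochondrial UMIs, and no doublets were removed. UMIs were summed per library and cell group, and groups of the same library were compared with edgeR 4.0.16 (quasi-likelihood test, TMM scaling, the default filter on low counts) in a single model over the Day 7 and Day 10 sums with the library as a block, since the groups compared come from the same libraries. Sums of Col10a1-high cells entered for Day 10 only. Calls were made at a Benjamini-Hochberg adjusted p under 0.05. Day 10 was set against Day 7 within the Ihh-positive cells in a model of its own, without a block, because sums of the same replicate letter did not deviate together between days (correlation over genes 0.07). With 2 libraries per day, p-values for groups of the same library measure how evenly a difference recurs across libraries. Their spread was pooled over the sums of both days, Col10a1-high sums included, and moderated over all genes. It is therefore not the spread of the 2 Day 10 cultures alone. For Day 10 against Day 7 the p-values measure the spread between cultures of the same day, moderated in the same way. Summed depth was 23088537 and 26499948 UMIs for the Ihh-positive cells and 18284728 and 18397519 for the Ihh-lacking chondrocytes of Day 10, and levels (CPM) are UMIs scaled to the same total in each sum. Ihh, Col10a1, Matn1 and Snorc chose the cells and were left out of every test.

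Members and gene lists were chosen with earlier results of these data known. Named genes come from 31 lists of 294 genes or from a rule that took, per comparison, the 10 called genes with the highest and the 10 with the lowest fold change whose libraries did not overlap and whose mean in the higher group reached 20 CPM, sex-linked, mitochondrial, ribosomal and unnamed models aside. A gene could thus pass through the group where it was high alone, so the fold changes and the gaps between libraries of these genes are partly set by the rule. Other limits on cells, thinning of cells to 10000 UMIs, DESeq2 1.42.0, and each library left out in turn were tried as alternatives. The code ran in Python 3.11.15 (scanpy 1.11.5 for Scrublet) and R 4.3.3 and was tested on simulated data. Coordinates are those of the mouse annotation on GRCm38. Not every gene that the rule took is reported.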

Additional observations from a re-analysis of the deposited data

Results flagged for a closer look

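For 20 of the named genes the difference between Ihh-positive cells and Ihh-lacking chondrocytes was not the same at Day 10 as at Day 7, by the edgeR test of the difference itself. The fold change was higher at Day 10 by 3.38 on the log2 scale for Slc13a5, by 1.36 for Slc8a3 and for Wnt5b, by 1.24 for Sgms2, by 1.12 for Alpl, by 0.99 for Creb3l1, by 0.95 for Tmem119, by 0.89 for Ndrg1, by 0.76 for Pth1r and by 0.73 for Pcsk6. It was higher by 0.70 for Wnt4, 0.58 for Comp, 0.55 for Col1a1, 0.53 for Cdkn1a and 0.39 for Mef2c. The difference ran the other way for Cytl1 (-1.09), Dlk1 (-0.67), Gdf10 (-0.56), Sp7 (-0.53) and Id2 (-0.49). Of the 20 differences, 10 were not called without replicate B of Day 7, 8 without replicate A of Day 7, 8 without the replicate block and 8 with Ihh at 1 or more UMIs, and 20 of 20 kept their direction in these settings. Against the deeper chondrocytes 15 were called in the same direction, 4 kept their direction without a call and Gdf10 turned to 0.028 with no call. Once only the Ihh-positive cells over the cartilage limit were used, 15 were called in the same direction and 4 kept their direction without a call. The fold change of Col1a1 then differed between the days by -0.01. Slc13a5 was at 0.23 and 0.14 CPM in the Ihh-positive cells of Day 7, so its gain rests on few UMIs at that day.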

How the results depend on the processing

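Of 1834 values for single named genes under the alternatives, 1719 kept direction and call, 103 kept direction without a call and 12 changed sign. Foxa3 against the Col10a1-high cells is not counted among them. Against Ihh-lacking chondrocytes at least as deep as the median Ihh-positive cell of their library (added after seeing the data), Lars2 differed by 0.25 and Ptch1 by 0.24 at Day 10, and the difference of Gdf10 between days was 0.028. With only the Ihh-positive cells over the cartilage limit, Col1a1 differed by -0.16 at Day 10 and by -0.015 between days. With both groups over the limit (also added after seeing the data), Ihh-positive minus Col10a1-high values were -0.55 for Comp, -0.60 for Mef2c, -0.092 for Panx3, -0.59 for Pth1r and -0.77 for Wnt4, and with Ihh at 1 or more UMIs they were -0.0063 for Mef2c and -0.15 for Wnt4. The cause of these turns was not tested. Numbers of genes called moved more than directions. At Day 10, 3076 genes were called, against 1309 with DESeq2, 1196 with cells thinned to 10000 UMIs, 1222 against the deeper chondrocytes and 2508 to 3360 with a library left out. At Day 7, 2430 were called, against 780, 950 and 827 in the same settings and 528 to 4252 with a library left out. The difference between days, 309 genes, gave 109, 167 and 186 in those settings, 164 with Ihh at 1 or more UMIs, 830 with no filter on low counts, 484 without the highest Scrublet scores and 61 to 1161 with a library left out. Its share of genes with the higher fold change at Day 10 was 66.0%, 76.1% with DESeq2, 58.8% with the Ihh-positive cells over the cartilage limit, 59.7% without the highest Scrublet scores and 54.6% to 78.9% with a library left out. Against the Col10a1-high cells 5505 were called, against 3382 with DESeq2, 3473 when thinned, 2478 with both groups over the limit and 4642 to 5145 with a library left out, and for Day 10 against Day 7 5139 were called, against 2983 with DESeq2, 2885 when thinned and 3750 to 4670 with a library left out. Without the library as a replicate block the within-library counts were 2081 at Day 10, 1290 at Day 7, 88 for the difference between days (79.5% with the higher fold change at Day 10) and 4885 against the Col10a1-high cells, and with the replicate letter as a block the count for Day 10 against Day 7 was 5448. Where leaving out a library left a day with 1 library, that library was assumed to vary like the others. The share of Ihh-positive cells, 7.01% and 8.03%, was 7.72% and 9.19% at 10000 or more UMIs, 5.77% and 5.90% under the cell limits of the authors and 12.6% and 12.9% with Ihh at 1 or more UMIs. Depth limits Pthlh, with 4 and 3 UMIs in the Ihh-positive cells, and Foxa2, under 7 CPM in both groups.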

Other observations

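Further gene lists were read in the same comparison at Day 10, where 11.8% of genes were higher and 9.71% lower. Fewer genes were called against the deeper chondrocytes in all (4.76% higher, 4.19% lower). Of 19 genes of secretory load and the unfolded protein response 1 was higher and 8 were lower in the Ihh-positive cells (median log2 fold change -0.12), with 2 and 4 for those over the cartilage limit and 2 and 1 against the deeper chondrocytes. Of 17 glycosaminoglycan and sulfation genes 3 were higher and 6 lower (median -0.10), with 5 and 1 over the limit and 2 and 1 against the deeper chondrocytes. Of 8 genes of the resting and columnar zones 1 was higher and 4 were lower (median -0.33), with 1 and 5 over the limit and, at a median of -0.37, 1 and 1 against the deeper chondrocytes. Among 11 regulators of early chondrocytes 2 were higher and 5 lower, with Sox5 and Sox6, the partners of Sox9, lower by 0.24 and 0.33, and the counts were 1 and 6 over the limit and 1 and 2 against the deeper chondrocytes. Of 13 FGF receptors and feedback genes 1 was higher and 1 lower, with 0 and 4 over the limit and 0 and 0 against the deeper chondrocytes.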
